A study of Mus musculus with 8 samples.

Results

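Bone marrow-derived macrophages (BMDM) were examined for 8 chemoattractant receptor genes, the formyl peptide receptors *Fpr1* and *Fpr2*, the anaphylatoxin receptors *C3ar1*, *C5ar1* and *C5ar2*, and the receptors *Ptafr*, *Ltb4r1* and *Cmklr1*. The genes were taken by symbol from a table of 53819 genes, and all 8 were present. Of the 13722 genes with enough counts to be tested, 7 belonged to this set, and *Ltb4r1* did not reach the filter. The set was selected with the difference between bilirubin and vehicle in these same cultures known, so that difference is described for the 8 receptors without a p-value.

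Marrow of 4 female BALB/cJ mice aged 8 weeks was cultured separately for each mouse and differentiated for 5 days with 25 ng/mL M-CSF. One culture of each mouse then received 2.5 µM bilirubin, an end product of heme breakdown, and another received DMSO vehicle, both for 48 h. Poly(A)-selected RNA of the 8 cultures was sequenced, which gave 34142781 to 47071714 estimated counts per library. All cultures therefore shared 1 strain, 1 sex and the M-CSF treatment, and each mouse contributed 1 library per group.

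These receptors are seven-transmembrane proteins that guide phagocytes to sites of infection and injury. Formyl peptides are released by bacteria and by mitochondria of damaged cells, C3a and C5a are cut from complement proteins, platelet-activating factor (PAF) and leukotriene B4 are lipids made by activated leukocytes, and chemerin is a protein activated by proteolysis. Most of the receptors signal through inhibitory G proteins to phosphoinositide 3-kinase, Rac and the phagocyte oxidase, whereas the receptor encoded by *C5ar2* binds C5a without coupling well to G proteins.

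Because *Fpr1* and *Fpr2* come from a family of similar genes, the stretch in which their coding sequences are closest is shown first. The longest run of identical bases in the coding sequences of *Fpr1* and *Fpr2* was 50 bases. The lines below give that run with 25 bases on each side, and the same positions of *Fpr3*, a neighbouring family member, on the coding strand. Capitals mark bases that differ from *Fpr2*, of which *Fpr1* had 14 and *Fpr3* had 6 in the 100 bases.
Fpr1: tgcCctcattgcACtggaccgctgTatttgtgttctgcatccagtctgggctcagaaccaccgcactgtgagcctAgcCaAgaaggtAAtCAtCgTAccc
Fpr2: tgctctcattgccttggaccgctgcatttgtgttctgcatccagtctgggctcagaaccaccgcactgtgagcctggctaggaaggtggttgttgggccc
Fpr3: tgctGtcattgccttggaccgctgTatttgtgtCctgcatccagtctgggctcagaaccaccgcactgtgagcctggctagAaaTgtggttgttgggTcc

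Across the whole coding sequence, *Fpr1* was 65.8% identical to *Fpr2* and 66.4% identical to *Fpr3*, and *Fpr2* was 88.2% identical to *Fpr3* with a longest shared run of 94 bases. The C5a receptors *C5ar1* and *C5ar2* were 49.6% identical, with a longest shared run of 11 bases. Of the 31-base words in the *Fpr1* transcript, 1.55% also occurred in transcripts of another gene. For the longer *Fpr2* transcript the share was 46.8%, most of it in the pseudogene *Gm5966*, and for the shorter one it was 26%. These words were counted in a later annotation than the one used for quantification, and in it the *Fpr2* transcripts were longer.

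Few of the estimated counts summed per gene carried fractions, which arise where Salmon divides reads between transcripts of different genes. Counts of single transcripts did carry them, as for *Fpr2* with 85.33 and 48.67 in the vehicle culture of mouse 1. A whole sum per gene does not show how many reads matched more than 1 gene. The gene sums of *Fpr1* were whole numbers, within 0.01, in all libraries but 1, and those of *Fpr2* in all but 2. In the bilirubin culture of mouse 1, the fractions of *Fpr1* (272.458) and *Fpr2* (455.543) added to 728.001. In the bilirubin culture of mouse 3, *Fpr2* had 735.774 counts and *Gm5966* had 3.225, which added to 738.999. *Gm5966* had 0 counts in the other libraries. *Fpr3* had 0 counts in all 8, which allows up to 3 counts per library. The 6 other receptors had whole gene sums, within 0.01, throughout.

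In the GRCm39 build, *Fpr1* (chr17:18096733-18104202, minus strand) and *Fpr2* (chr17:18108070-18114215, plus strand) lay head to head with 3867 bases between them. The annotated span of *Fpr3* covered that of *Fpr2* on the same strand. *C5ar2* (chr7:15968503-15978121) and *C5ar1* (chr7:15980668-15993465) were neighbours on the minus strand, 2546 bases apart. *C3ar1* was at chr6:122823393-122833122 on the minus strand, *Ptafr* at chr4:132291363-132309994 on the plus strand, *Ltb4r1* at chr14:56003292-56005951 on the plus strand and *Cmklr1* at chr5:113750358-113788509 on the minus strand. The antisense gene *Gm15736* lies within *Cmklr1* and had 0 counts in all 8 libraries.

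The 250 bases before the RefSeq start of *Fpr1* (chr17:18104202-18104451, minus strand), *Fpr2* (chr17:18107836-18108085, plus strand) and *C3ar1* (chr6:122833117-122833366, minus strand) are given because the first pair are neighbours that were both higher with bilirubin, and the last is the most abundant receptor and was not. They come from RefSeq's GRCm38.p6 promoter table and were placed in GRCm39 by an exact match. Capitals mark the motifs found in a search of both strands for AP-1 (TGANTCA), PU.1 (GAGGAA), C/EBP (TTGCNNAA), STAT (TTCNNNGAA) and the kappa B site.
Fpr1: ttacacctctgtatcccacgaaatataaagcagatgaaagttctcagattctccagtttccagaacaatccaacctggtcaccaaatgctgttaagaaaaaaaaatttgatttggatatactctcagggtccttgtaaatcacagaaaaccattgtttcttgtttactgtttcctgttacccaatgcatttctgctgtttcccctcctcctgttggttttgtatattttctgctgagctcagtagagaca
Fpr2: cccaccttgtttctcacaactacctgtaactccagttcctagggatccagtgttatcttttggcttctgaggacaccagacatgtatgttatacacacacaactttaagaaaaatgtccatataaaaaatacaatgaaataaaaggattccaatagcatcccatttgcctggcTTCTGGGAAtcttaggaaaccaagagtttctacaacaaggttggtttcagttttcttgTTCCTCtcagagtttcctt
C3ar1: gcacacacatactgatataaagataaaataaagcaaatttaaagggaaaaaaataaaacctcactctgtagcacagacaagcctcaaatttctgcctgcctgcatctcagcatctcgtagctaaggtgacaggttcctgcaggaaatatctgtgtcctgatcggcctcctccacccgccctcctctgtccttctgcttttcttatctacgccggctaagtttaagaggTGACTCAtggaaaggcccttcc

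The *Fpr1* window held none of these motifs, the *Fpr2* window held a STAT match starting 77 bases and a PU.1 match starting 19 bases before the start, and the *C3ar1* window held an AP-1 match starting 22 bases before it. In RefSeq windows of 300 bases, which run 50 bases past the start, a PU.1 match occurred in 28.3% of 32851 promoters, a STAT match in 8.3%, an AP-1 match in 7.81%, a C/EBP match in 10.8% and a kappa B match in 8.46%. Among the 8 receptors, 5 had a PU.1 match (*Fpr2*, *C5ar2*, *Ptafr*, *Ltb4r1* and *Cmklr1*), *C5ar2* alone had a C/EBP match, and no window of the set held a kappa B match. The *Cmklr1* window began 6845 bases from the annotated start of the gene, so it describes an internal start. *C5ar2* had 2 windows, starting 42 and 1865 bases from the annotated gene start, and its PU.1 match was in the farther one. These matches are letters in a window and were not tested against the expression values.

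At the level of the set, *Fpr1*, *Fpr2* and *Cmklr1* were higher with bilirubin in every mouse, by 9.86-fold, 6.77-fold and 2.68-fold, whereas the fitted differences of *C3ar1*, *C5ar1*, *C5ar2* and *Ptafr* were small. Of the 7 tested receptors, 3 passed an adjusted p of 0.05 in edgeR and were higher, against a background of 4.49% of all tested genes, and 0 passed and were lower, against a background of 3.04%. The bilirubin values of these 3 receptors lay above all vehicle values, which was true of 5.93% of tested genes. As the set was chosen on this comparison, nothing is read from these counts. The tested receptors had at least 18 counts in every library, so none entered through the bilirubin cultures alone. In RNA from whole cultures, a lower or higher number of cells that express a gene cannot be told apart from less or more RNA per cell.

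**Figure D1:**
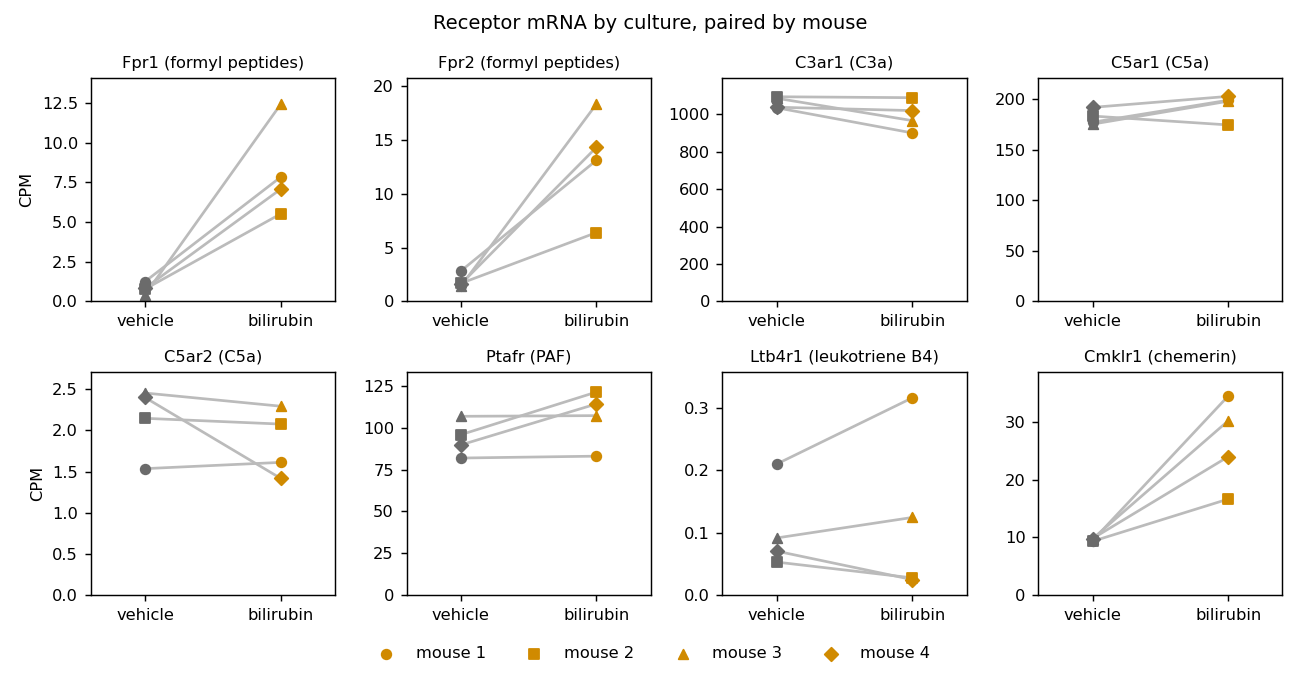
Level of each receptor in CPM (counts scaled to library size and by TMM), with 1 point per culture and lines joining the vehicle and bilirubin cultures of a mouse. Each panel starts at 0 and has its own scale. *Fpr1*, *Fpr2* and *Cmklr1* have no overlap between the groups, and the other 5 receptors overlap.

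*Fpr1* encodes the high-affinity receptor for N-formylated peptides. With vehicle, mice 1 to 4 had 59, 29, 18 and 35 estimated counts of it, or 1.24, 0.768, 0.413 and 0.823 CPM, the count scaled to library size and by the trimmed mean of M values (TMM). In the bilirubin cultures the levels were 7.83, 5.51, 12.4 and 7.07 CPM. The lowest bilirubin culture, that of mouse 2, was thus above the highest vehicle culture, that of mouse 1, and mouse 3 had both the lowest vehicle and the highest bilirubin level. Mean levels were 0.811 ± 0.339 CPM with vehicle and 8.20 ± 2.97 CPM with bilirubin (SD, n = 4), and the log2 fold change was 3.30 ± 0.32 (SE). Within mice the log2 change ran from 2.61 in mouse 1 to 4.75 in mouse 3. Counting error alone accounts for a coefficient of variation of 16.8% at the mean vehicle count, where the observed value was 41.8%.

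*Fpr2* encodes the family member that binds formyl peptides with lower affinity and also serum amyloid A, annexin A1 and lipoxin A4. Its vehicle levels in mice 1 to 4 were 2.82, 1.67, 1.398 and 1.60 CPM, and its bilirubin levels were 13.1, 6.40, 18.4 and 14.3 CPM. As with *Fpr1*, mouse 1 had the highest vehicle level, and mice 2 and 3 had the lowest and highest bilirubin levels. Mean levels were 1.87 ± 0.64 and 13.1 ± 5.0 CPM (SD, n = 4), and the log2 fold change was 2.76 ± 0.26 (SE), with 1.91 in mouse 2 and 3.67 in mouse 3 as the extremes. When the counts of *Fpr1* and *Fpr2* were summed before the fit, the log2 fold change was 2.95 ± 0.26 (SE). Among 13722 tested genes ordered from the most positive log2 fold change, *Fpr1* ranked 15 and *Fpr2* ranked 20, positions that the choice of the set already used.

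Expression of *Fpr2* exceeded that of *Fpr1* per transcript length in all 8 libraries. In TPM, which scales counts to transcript length and library size, the ratio of *Fpr2* to *Fpr1* was 3.07, 3.00, 4.66 and 2.54 for mice 1 to 4 with vehicle and 2.29, 1.57, 2.00 and 2.83 with bilirubin. The ratio was lower with bilirubin in mice 1, 2 and 3 and higher in mouse 4, and the groups overlapped. *Fpr2* counts were divided between a transcript of 1133 bases and one of 883 bases. From vehicle to bilirubin, the share of the longer went from 63.7% to 59.2% in mouse 1, from 56.9% to 63.6% in mouse 2, from 57.5% to 62.3% in mouse 3 and from 73.4% to 53.2% in mouse 4. The share was thus lower with bilirubin in mice 1 and 4 and higher in mice 2 and 3, and the groups overlapped.

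*Cmklr1* encodes a receptor for chemerin. It had the tightest vehicle values of the 3 receptors that were higher, at 9.44, 9.32, 9.77 and 9.81 CPM in mice 1 to 4, and its bilirubin values were 34.5, 16.6, 30.2 and 23.99 CPM. The vehicle coefficient of variation of 2.48% was below the 4.93% that counting error alone gives, so nothing is read from this tightness. Mouse 2 again had the lowest bilirubin level, but here mouse 1 had the highest. Means were 9.59 ± 0.24 and 26.3 ± 7.8 CPM (SD, n = 4). The log2 fold change was 1.42 ± 0.15 (SE), and it ran within mice from 0.83 in mouse 2 to 1.86 in mouse 1. One transcript of 2882 bases carried a median of 98.3% of the counts with vehicle and 95.1% with bilirubin.

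*C3ar1*, the receptor for C3a, was the most abundant of the set. Its vehicle levels were 1036, 1095, 1087 and 1039 CPM in mice 1 to 4, and its bilirubin levels were 901, 1090, 967 and 1021 CPM. The bilirubin culture of mouse 2 lay within the vehicle range, so the groups overlapped in CPM, while those of the other mice lay below it. In TPM the groups did not overlap, at 391 to 410 with vehicle and 347 to 389 with bilirubin. How many other genes were separate in TPM was not counted. The fitted log2 difference was -0.10 ± 0.04 (SE) and did not pass the threshold, and the within-mouse differences were -0.20, -0.01, -0.17 and -0.03. A lower value in all 4 mice was seen for 13.9% of all tested genes.

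*C5ar1* encodes the main receptor for C5a. It stood at 178, 184, 176 and 192 CPM in the vehicle cultures and at 199, 175, 198 and 203 CPM in the bilirubin cultures of mice 1 to 4. The bilirubin culture was higher in 3 mice and lower in mouse 2, and the fitted log2 difference of 0.09 ± 0.05 (SE) did not pass the threshold. *C5ar2*, the second C5a receptor, stood at 1.54, 2.15, 2.45 and 2.40 CPM with vehicle and at 1.61, 2.08, 2.29 and 1.42 CPM with bilirubin, which rested on 56 to 107 counts per library. Its groups overlapped, and its fitted log2 difference was -0.21 ± 0.20 (SE). *C5ar1* outnumbered *C5ar2* in TPM by 124 to 177 times with vehicle and by 136 to 235 times with bilirubin. Counting error at these *C5ar2* levels gives a coefficient of variation of 10.5% with vehicle and 12% with bilirubin, so a change of that size was not detectable in a single culture.

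*Ptafr*, the receptor for PAF, had 82.0, 95.9, 107 and 89.8 CPM with vehicle and 83.1, 121, 107 and 114 CPM with bilirubin in mice 1 to 4. Mice 2 and 4 had log2 differences of 0.34 and 0.35, whereas mice 1 and 3 had 0.02 and 0.01. The bilirubin culture was thus higher in all 4 mice, as in 14.5% of tested genes, but the groups overlapped and the fitted log2 difference of 0.18 ± 0.07 (SE) did not pass the threshold. It did pass when mouse 1 was left out (0.23) and when no filter on low counts was applied (0.17). *Ltb4r1*, the high-affinity receptor for leukotriene B4, had 10, 2, 4 and 3 counts with vehicle and 11, 1, 5 and 1 counts with bilirubin. Mouse 1 had the most counts in each group, and a difference was not detectable at this depth.

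**Figure D2:**
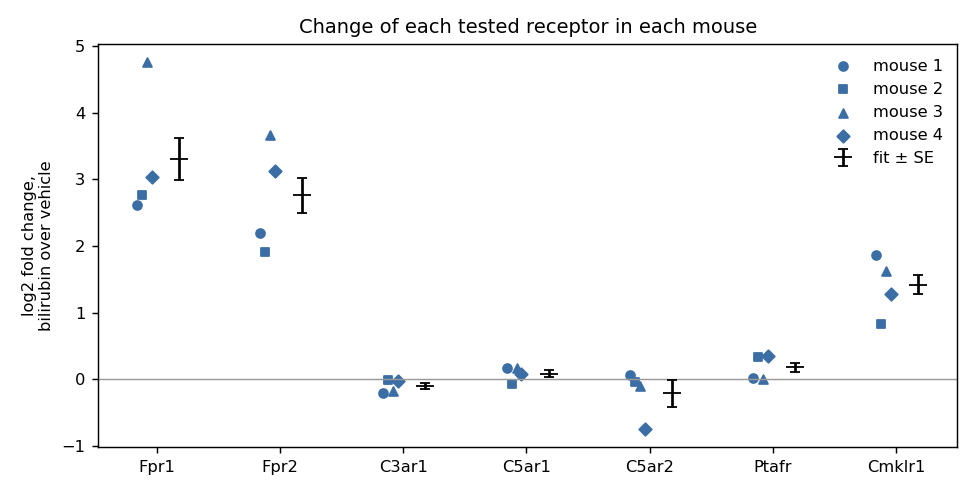
Log2 fold change of bilirubin over vehicle for the 7 tested receptors. Blue symbols are the 4 mice and the black bar is the fitted value ± SE. The mice lie between 2.61 and 4.75 for *Fpr1*, between 1.91 and 3.67 for *Fpr2* and between 0.83 and 1.86 for *Cmklr1*, and close to 0 for the other genes except *C5ar2* in mouse 4.

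Per transcript length, the vehicle cultures were dominated by the anaphylatoxin receptors. Mean vehicle levels were 401 TPM for *C3ar1*, 146 for *C5ar1*, 42.0 for *Ptafr*, 5.84 for *Cmklr1*, 3.42 for *Fpr2*, 1.097 for *Fpr1*, 1.03 for *C5ar2* and 0.136 for *Ltb4r1* (n = 4). The only neighbours in this order whose ranges overlapped were *Fpr1* (0.552 to 1.70) and *C5ar2* (0.754 to 1.18). Against a median of 15.1 TPM over tested genes, *C3ar1* ranked 338, *C5ar1* ranked 948 and *Ptafr* ranked 3464 of 13722 genes in mean vehicle TPM, and the 4 other tested receptors were below the median.

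With bilirubin the top 3 kept their order, with means of 362, 149 and 46.2 TPM. *Fpr2* followed at 23.4 ± 9.0 TPM, then *Cmklr1* at 16.0 ± 5.7 and *Fpr1* at 10.8 ± 4.0 (SD, n = 4). The ranges of these 3 overlapped, since *Fpr2* ran from 11.04 to 32.5, *Cmklr1* from 9.06 to 22.5 and *Fpr1* from 7.05 to 16.2. Within libraries, *Fpr2* was below *Cmklr1* in all 4 vehicle cultures and above it in all 4 bilirubin cultures. *Fpr1* exceeded *C5ar2* in 1 vehicle culture and in all 4 bilirubin cultures.

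The formyl peptide receptors remained a small part of the total. *Fpr1* and *Fpr2* together made up 1.19%, 0.67%, 0.51% and 0.66% of the TPM of the 8 receptors with vehicle, mice 1 to 4 in order, and 5.90%, 3.03%, 7.78% and 5.61% with bilirubin. The share of *C3ar1* was 65.8% to 68.2% with vehicle and 56.3% to 65.2% with bilirubin. Nothing is read from the lack of overlap between these ranges. The total includes *Fpr1*, *Fpr2* and *Cmklr1*, and the set was chosen with the difference between the groups known. How often such shares separate for other genes was not counted. The summed level of the 8 receptors was 579 to 614 TPM with vehicle and 598 to 627 TPM with bilirubin, and these ranges overlapped.

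**Figure D3:**
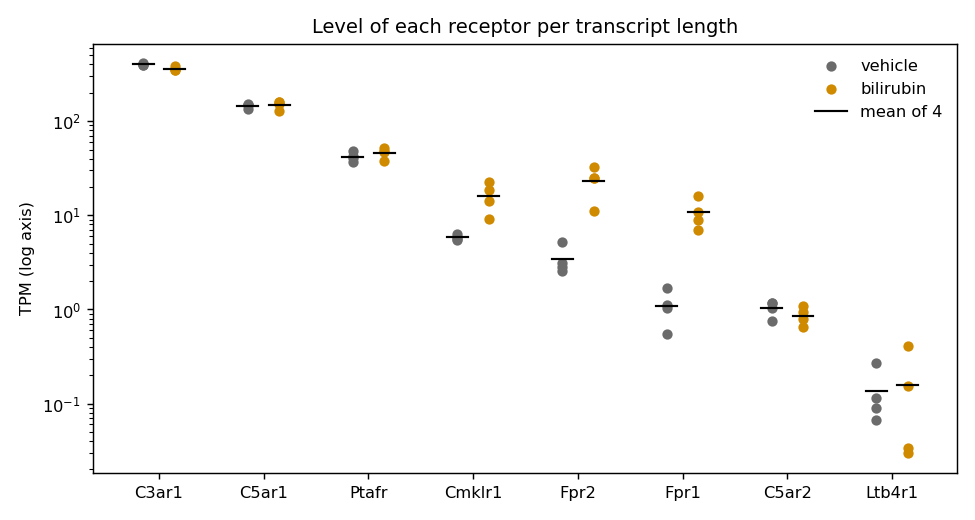
Level of the 8 receptors in TPM on a log axis, ordered by the vehicle mean. Points are the 4 cultures of each group and black lines are their means. *C3ar1*, *C5ar1* and *Ptafr* stay highest in both groups, and *Fpr2* and *Fpr1* move from 3.42 and 1.097 TPM to 23.4 and 10.8 TPM.

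Each tested receptor was then matched with the genes whose profile was nearest over the 8 libraries, measured as the root mean square difference of log2 CPM after centring on the vehicle mean. The nearest genes to *Fpr1* were *Il1a* (0.403), *Acod1* (0.412) and *Ccl5* (0.437), and those to *Fpr2* were *Slpi* (0.288), *Mmp14* (0.317) and *C3* (0.381). *Cmklr1* was nearest to *Abca1* (0.181), *Gm10134* (0.189) and *Il2rg* (0.193). The distances were smaller for the abundant receptors that moved little, at 0.0245 between *C3ar1* and *Ptk2b*, 0.0290 between *C5ar1* and *Paics*, and 0.0602 between *Ptafr* and *Lrrc49*. The gene nearest to *C5ar2* was *Gm8624*, at 0.126. Because profiles were centred on vehicle alone, near genes share much of the fold change on which the set was chosen. The log2 fold changes of *Il1a*, *Acod1* and *Ccl5* were 3.51, 3.39 and 3.38, and *Il1a* had a mean vehicle level of only 0.217 CPM.

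Apart from *Ccrl2*, the measured genes for other receptors of the same ligands had 0 to 7 counts per library. Of 9 symbols listed, 8 were in the table (*Cmklr2*, another name of the listed *Gpr1*, was not), and only *Ccrl2*, which encodes a chemerin-binding receptor that does not signal, was tested. It rose from 5.98 ± 0.53 to 8.69 ± 0.82 CPM (SD, n = 4), a log2 fold change of 0.54 with an edgeR adjusted p of 0.011. Without mouse 3 or without mouse 4 its adjusted p was 0.0847 or 0.0893, and with an offset for transcript length it was 0.0505, so the count of 1 fell to 0 in each case.

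Genes for peptide ligands and complement components included the largest differences of the lists. Of 22 genes, 9 were tested, 7 rose and 0 fell, with a median log2 fold change of 0.71 beside -0.002 over all tested genes. Over all tested genes 4.49% rose and 3.04% fell. *Saa3*, an acute-phase serum amyloid A protein of a family that acts on the *Fpr2* product, rose from 3.19 ± 0.32 to 131 ± 49 CPM in all 4 mice (edgeR adjusted p = 6.5e-06). *C3*, the source of C3a, rose from 15.6 ± 1.0 to 132 ± 39 CPM (edgeR adjusted p = 1.3e-05). *Cfb*, whose product forms the alternative pathway C3 convertase, had a log2 fold change of 5.204 ± 0.42 (SE, edgeR adjusted p = 0.00027). Its mean vehicle level of 0.289 CPM included a library with 0 counts. The vehicle cultures alone would therefore not have passed the filter on low counts, and *Cfb* was tested only through its bilirubin cultures. Its place among the 7 that rose is thus not independent of the filter. *C1s1*, a protease of the classical pathway, had a log2 fold change of 3.09 ± 0.25 (SE, edgeR adjusted p = 0.00027). It rose from a low vehicle mean of 0.349 CPM to 2.96 CPM, on 10.888 to 130.274 estimated counts per library. With an offset for transcript length its log2 fold change was 2.72 ± 0.51 (SE, edgeR adjusted p = 0.0311). The other genes that rose, named after their values were seen to complete the count, were *C1ra* (0.71), *Cfp* (0.48) and *Anxa1* (0.30, log2). The chemerin gene *Rarres2* had 0 to 11 counts and the C5 gene *Hc* 0 to 2 counts per library, which left both ligand genes under the filter on low counts.

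Of 14 genes listed for the making or breakdown of PAF and leukotrienes, all were tested, 3 rose and 0 fell. The background was 4.49% of all tested genes higher and 3.04% lower. The list had a median log2 fold change of 0.06. *Pla2g7*, the secreted PAF acetylhydrolase, rose from 368 ± 31 to 623 ± 66 CPM, *Lpcat2*, which synthesises PAF, from 24.6 ± 1.1 to 38.6 ± 7.0 CPM, and *Ptgr1*, a reductase that inactivates leukotriene B4, from 190 ± 20 to 273 ± 70 CPM (SD, n = 4). Their edgeR adjusted p values were 8.8e-05, 0.0041 and 0.022. The count of 3 became 5 without mouse 1 and 1 without mouse 3. *Lpcat2* did not pass without mouse 3 (edgeR adjusted p = 0.0537), and *Ptgr1* did not pass without mouse 2, 3 or 4 (0.112, 0.164 and 0.131), with the mouse left out of the model (0.106) or with an offset for transcript length (0.0516).

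G proteins, arrestins, receptor kinases and RGS proteins gave 27 tested genes of 28, of which 1 rose and 5 fell, with a median log2 fold change of 0.02. The background was 4.49% of all tested genes higher and 3.04% lower, so the 1 of 27 that rose is near it. *Grk3*, a kinase that desensitises receptors, rose by a log2 fold change of 0.59 (edgeR adjusted p = 0.0037). *Rgs10* and *Rgs2*, which shorten G protein signals, had log2 fold changes of -0.24 and -0.34 (edgeR adjusted p = 0.0071 and 0.0095). The other 3 that fell, named to complete the count, were *Rgs1* (-0.45), *Gna12* (-0.37) and *Gng5* (-0.17). *Rgs10* did not pass without mouse 3 or 4 (edgeR adjusted p = 0.0746 and 0.064), nor *Rgs2* without mouse 3 (0.0931) or with an offset for transcript length (0.0573). The count of 5 that fell became 9, 3, 0 and 1 without mouse 1, 2, 3 and 4, and 3 when the mouse was left out of the model.

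Of the 19 effectors of chemotaxis and the phagocyte oxidase, all were tested, 8 rose and 0 fell, with a median log2 fold change of 0.07. The background was 4.49% of all tested genes higher and 3.04% lower. *Fgr*, a Src-family kinase, rose from 5.79 ± 0.92 to 19.3 ± 4.4 CPM, *Cybb*, the catalytic subunit of the oxidase, from 565 ± 16 to 1052 ± 105 CPM, and *Pik3r5*, the regulatory subunit of phosphoinositide 3-kinase gamma, from 222 ± 11 to 278 ± 14 CPM (SD, n = 4). Their edgeR adjusted p values were 1.7e-05, 8.4e-05 and 0.00097, and each was higher in 4 of 4 mice. The count of 8 became 5 without mouse 3 and 5 without mouse 4, and 2 genes fell without mouse 1.

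Chemokine receptors, a set of similar receptors, had 8 tested genes of 22, of which 0 rose and 2 fell, with a median log2 fold change of -0.21. Beside them, 4.49% of all tested genes rose and 3.04% fell. *Cx3cr1*, the fractalkine receptor, fell from 188 ± 21 to 93.0 ± 9.2 CPM (SD, n = 4, edgeR adjusted p = 5.0e-05). *Cxcr4*, the CXCL12 receptor, fell from 322 ± 25 to 269 ± 40 CPM (edgeR adjusted p = 0.017), but not without mouse 3 (0.127), without mouse 4 (0.0863) or with the mouse left out of the model (0.17). The difference between the 2 receptor sets was not tested, since 1 of them was chosen on this comparison.

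**Figure D4:**
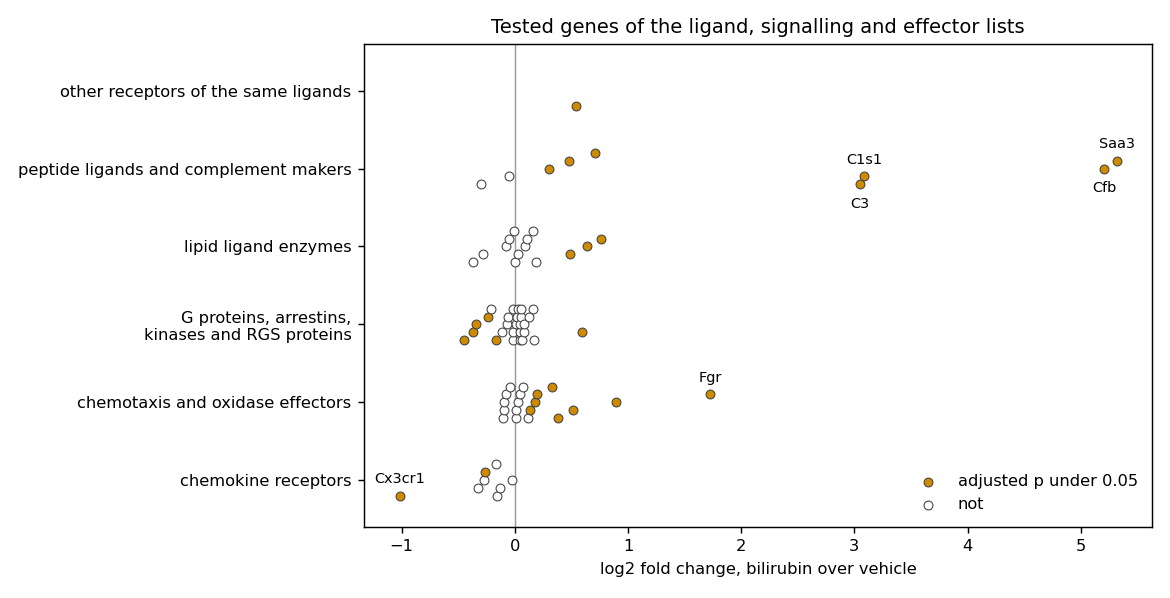
Log2 fold change of bilirubin over vehicle for each tested gene of the 6 lists, with filled points for an adjusted p under 0.05 in edgeR and open points for the others. Names mark genes past that threshold with a log2 fold change of at least 1 in size. Filled points lie right of 0 for ligand, lipid enzyme and effector genes and left of 0 for chemokine receptors.

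Macrophage markers were abundant in all libraries, with a summed level of 24200 to 24500 CPM with vehicle and 28600 to 30600 CPM with bilirubin over 8 of 8 genes, mostly *Lyz2*. Since *Fpr1* and *Fpr2* are well known from neutrophils, a list of 12 neutrophil markers was also summed, and gave 167 to 192 CPM with vehicle and 192 to 221 CPM with bilirubin over the 11 genes with counts. Most of this was *Mmp8* (143 and 163 CPM on average), while *Retnlg* had 0 counts, *Ly6g* 0 to 3, *Elane* 0 to 7 and *S100a9* 0 to 20 counts per library. Of the 5 neutrophil markers tested, 1 rose and 0 fell, beside 4.49% and 3.04% of all tested genes. *S100a8* rose from 11.5 to 24.4 CPM (log2 fold change 1.07, edgeR adjusted p = 0.00033), while *Csf3r* had 23.9 and 23.1 CPM (log2 fold change -0.06, edgeR adjusted p = 0.854) and *Cxcr2* had a log2 fold change of -0.27 (edgeR adjusted p = 0.794). The part of these markers in the receptor values was not tested. Markers of monocytes summed to 2.21 to 5.01 CPM over all 8 libraries, and those of mast cells and basophils to 0.249 to 0.747. Those of lymphocytes summed to 0 to 0.194 and those of stromal and endothelial cells to 3.52 to 9.62 CPM. Dendritic cell markers summed to 0.0235 to 0.159 CPM with vehicle and 0.194 to 0.647 CPM with bilirubin. These ranges did not overlap, but 0 of the 7 dendritic cell genes reached the filter on low counts.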

How the data were processed

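RNA of 8 BMDM cultures, a vehicle and a bilirubin culture from each of 4 mice, had been sequenced by the submitters in read pairs after poly(A) selection. Per the labels and the study's methods, the authors trimmed reads with Trim Galore 0.6.7 and Cutadapt 3.4, aligned them with STAR 2.7.9a and quantified them with Salmon 1.10.1 on Ensembl transcripts, and deposited estimated counts per gene and, per transcript, estimated counts and TPM. Salmon divides reads that match several transcripts, so similar genes can share counts. The strand setting was not given in the sources used here.

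Estimated counts were rounded and tested in edgeR 4.0.16 (R 4.3.3) with TMM scaling, filterByExpr (minimum count 10) and the quasi-likelihood test with Benjamini-Hochberg adjustment over 13722 genes, at a threshold of 0.05. Mouse and treatment were in the model because the numbered cultures came from the same animals. Deviations from the group means correlated within mice 1 to 4 at 0.108, 0.134, 0.108 and -0.0053. The highest correlations of their vehicle cultures with a bilirubin culture of another mouse were -0.0324, -0.0222, 0.0751 and 0.0619. The values thus show little of the pairing, and none of it for mouse 4. The script was tested on simulated data. Members and gene lists were chosen with earlier results of these data known. *Saa3*, *C3*, *C1s1* and *Cfb* belong to genes the study itself displayed from these samples. Its gene set results from these samples also name, among others, *Fpr1*, *Cmklr1*, *Fgr*, *Cybb*, *Pik3r5* and *Pla2g7*. The lists that hold any of these genes are therefore not independent evidence of direction. Values are mean ± SD or log2 fold change ± SE. Named genes were all receptors with *Fpr3*, list genes past the threshold with a log2 fold change of at least 1 in size, the 3 of each list with the smallest adjusted p, the 3 nearest profiles of each receptor, and the highest markers of other cell types. Sequence words of 31 bases, coding identity (Biopython 1.88) and motifs were computed from GENCODE and RefSeq sequences. Alternatives were DESeq2 1.42.0, limma-voom 3.58.1, other scalings and filters, an offset for transcript length, a fit without the mouse, and each mouse left out. Receptor proteins were not analysed here.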

Additional observations from a re-analysis of the deposited data

How the results depend on the processing

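*Fpr1*, *Fpr2* and *Cmklr1* kept their direction and stayed past the threshold under all alternatives run that could change their counts (the sum of *Fpr2* with *Fpr3*, which had 0 counts, could not), with log2 fold changes of 2.85 to 3.59, 2.44 to 3.01 and 1.27 to 1.60. *Ptafr* joined them with no filter and without mouse 1. All of these are refits of the libraries on which the set was chosen, so they describe processing and add no evidence on the receptors. Without the replicate block, which ignores the pairing by mouse, 458 genes were higher and 228 lower, against 616 and 417, and the G protein list had 3 lower genes and the chemokine receptors 1. With no filter 774 genes were lower. With the offset for transcript length 372 genes were higher and 207 lower, the list of other receptors had 0 higher genes and the G protein list had 2 lower. Scaling by library size alone gave 527 higher and 556 lower genes, so that 48.7% of called genes were higher against 59.6%. The cause of these shifts was not tested.

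Leaving out each mouse in turn gave 265 to 1026 higher and 112 to 884 lower genes. It gave 0 to 1 higher genes among other receptors, 1 to 5 among lipid enzymes, 5 to 8 among effectors with 0 to 2 lower, 0 to 9 lower in the G protein list and 1 to 3 lower among chemokine receptors. With 4 mice, and 18 to 107 counts behind each vehicle value of *Fpr1* and *C5ar2*, small differences in these genes were not detectable. Estimated counts carry counting error only as far as reads are independent.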

Other observations

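The counts of *C5ar2* were given whole to 1 annotated transcript in each library. In all vehicle cultures and in the bilirubin cultures of mice 3 and 4 this was a transcript of 3381 bases, and in the bilirubin cultures of mice 1 and 2 it was one of 3429 bases. The gene totals behind them were 56 to 107 counts. *C5ar1*, with 6313 to 8441 counts per library, was divided over 3 transcripts, and the one of 2481 bases carried 75.4% to 84.8% of its counts.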
